A study of Mus musculus with 24 samples.

Results

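The genes described here were 10 members of the Hippo pathway and of the gene programme that its effectors switch on, out of 52089 gene symbols in the deposited RPKM table (reads scaled to transcript length and library depth): Yap1, Wwtr1, Tead1, Lats1, Lats2, Ajuba, Amotl2, Ctgf, Cyr61 and Ankrd1. Each gene was read from a single transcript entry, chosen by the highest mean RPKM over the 24 libraries with RefSeq mRNA entries taken first, and KD was compared with NC at 24 h and at 72 h. The libraries came from primary preadipocytes of the inguinal white fat of 129SvEv mice, grown from the stromal vascular fraction and driven towards brite adipocytes, white fat cells with heat-producing capacity. All 4 groups shared the same induction of 2 days and 1 day of differentiation with rosiglitazone, a PPARG agonist. The cells were then transfected with 50 nM of an antisense oligonucleotide (LNA gapmer), either against the long noncoding RNA Ctcflos (groups KD 24 h and KD 72 h) or without a target (NC 24 h and NC 72 h), and were harvested 24 h or 72 h later. Each group held 6 libraries. The study calls its replicates biological, while the labels do not tie a library to a mouse or culture, and p-values measure the spread between these libraries.

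The Hippo pathway is a chain of kinases that restrains the related transcriptional coactivators YAP (gene Yap1) and TAZ (gene Wwtr1). The kinases LATS1 and LATS2 phosphorylate both, which holds them in the cytoplasm through 14-3-3 proteins and leads to their breakdown. When the chain is quiet, as in spread cells under mechanical tension, YAP and TAZ enter the nucleus and bind TEAD factors on DNA, and genes such as Ctgf, Cyr61 and Ankrd1 are transcribed. In fat cell precursors TAZ is known as a coregulator that binds PPARG and restrains adipogenesis.

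The libraries held 1391832 to 5423840 mapped reads (median 3945867), with the fewest in KD 24 h replicate 6. Because NC 72 h replicates 2 and 3 differed by less than the sampling noise, they were averaged as 1 sample, which left n = 5 in NC 72 h. By their deviations from the group means the samples were cut into 2 clusters, a number set beforehand. The larger one held 15 samples and the smaller one 8, with 2 from every group. Between samples of different groups the mean correlation was 0.07 within a cluster and -0.08 between clusters. The clusters were drawn from these same values, so fits by cluster are a description. The RefSeq transcript of Ctcflos measured 0.19 ± 0.24 RPKM (SD, n = 6) in KD 24 h and 0.74 ± 0.52 RPKM (SD, n = 6) in NC 24 h, and 0.23 ± 0.22 RPKM (SD, n = 6) in KD 72 h and 1.23 ± 0.41 RPKM (SD, n = 5) in NC 72 h. These values rest on few reads, 12 in sum in KD 24 h, 60 in NC 24 h, 17 in KD 72 h and 91 in NC 72 h. At 24 h the groups overlapped, with 0.00 to 0.62 RPKM in KD and 0.18 to 1.38 in NC. Adipocyte markers were abundant, since the summed level of 7 adipocyte genes (Adipoq, Plin1, Fabp4, Pparg, Lep, Cidec and Lipe) was 25461 to 51749 scaled RPKM, although Lep, the gene of leptin, had no read in KD at either time. This sum was 36336 to 48586 in KD 24 h against 49238 to 51749 in NC 24 h, and 25461 to 34638 in KD 72 h against 35283 to 47157 in NC 72 h. Most of it came from Fabp4, so the sum mainly compares that gene. The 5 endothelial markers summed to at most 1.59 scaled RPKM in any sample and the 6 epithelial markers to at most 1.56, while the 5 mesothelial markers reached 12.5 in NC 72 h. The 5 macrophage markers summed to 2.13 to 6.13 in KD 24 h against 0.886 to 3.30 in NC 24 h and to 4.21 to 9.73 in KD 72 h against 2.91 to 4.97 in NC 72 h. Csf1r was the largest term of this sum, at 1.89 to 4.81 scaled RPKM in KD 24 h against 0.886 to 2.12 in NC 24 h and 3.17 to 8.11 in KD 72 h against 1.97 to 2.98 in NC 72 h, and the mean of Cd68 was also higher in KD at both times. The means of the other 3 (Adgre1, Ptprc and Itgam) were lower in KD at both times, and none was above 0.403 in any group. The 7 smooth muscle and pericyte markers summed to 184 to 866 in KD 24 h against 511 to 1489 in NC 24 h, and to 272 to 375 in KD 72 h against 361 to 1087 in NC 72 h. The 7 progenitor markers summed to 394 to 791 in KD 24 h against 432 to 1017 in NC 24 h and to 672 to 857 in KD 72 h against 379 to 1017 in NC 72 h, most of it from Ly6a. Cd34, a progenitor marker of low level, measured 1.06 to 2.70 scaled RPKM in KD 72 h against 0.150 to 0.736 in NC 72 h (log2 fold change 2.02 ± 0.36, SE). It passed the filter on low values through KD alone, since 0 NC samples reached its level, and is given without a p. The other progenitor markers tested at 72 h were not called. Pdgfra stood at -0.30 ± 0.20 (log2, SE), Thy1 at -0.04 ± 0.15 and Ly6a at 0.27 ± 0.21. The means of Dlk1, Pi16 and Dpp4, which were not tested at 72 h, were lower in KD 72 h than in NC 72 h. The part of these shifts in the results below was not tested, and fewer cells of a type cannot be told apart from less RNA per cell in bulk libraries.

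TEAD factors bind the letters GGAATG, or CATTCC when read on the other strand. The 250 bases before the RefSeq transcription start (build GRCm38.p6) were searched for either form, which do not overlap each other, in the 8 members with an entry in the promoter table. The motif stood in 6 of them, namely Yap1, Wwtr1, Ajuba, Amotl2, Cyr61 and Ankrd1, whereas Lats1 and Lats2 held none in these windows. Of all 32851 promoters in the table, 12.6% held it. Promoters are shown for Ankrd1 and Cyr61, whose transcription is a textbook readout of YAP and TAZ, and for Ajuba and Amotl2, which rose after the knockdown. The strand is that of the gene, the last base printed lies next to the start, and capitals mark the motif.
Ankrd1 promoter, minus strand, chr19:36119845-36120094: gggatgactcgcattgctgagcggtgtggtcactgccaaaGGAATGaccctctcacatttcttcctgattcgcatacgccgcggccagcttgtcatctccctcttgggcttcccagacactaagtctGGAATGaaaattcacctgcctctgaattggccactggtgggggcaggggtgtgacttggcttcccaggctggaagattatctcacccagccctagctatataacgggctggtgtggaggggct
Cyr61 promoter, minus strand, chr3:145649986-145650235: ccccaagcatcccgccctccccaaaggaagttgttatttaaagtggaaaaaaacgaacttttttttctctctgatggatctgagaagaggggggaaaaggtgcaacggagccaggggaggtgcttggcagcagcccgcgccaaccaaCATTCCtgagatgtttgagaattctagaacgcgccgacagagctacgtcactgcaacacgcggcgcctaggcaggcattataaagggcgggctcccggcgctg
Ajuba promoter, minus strand, chr14:54577662-54577911: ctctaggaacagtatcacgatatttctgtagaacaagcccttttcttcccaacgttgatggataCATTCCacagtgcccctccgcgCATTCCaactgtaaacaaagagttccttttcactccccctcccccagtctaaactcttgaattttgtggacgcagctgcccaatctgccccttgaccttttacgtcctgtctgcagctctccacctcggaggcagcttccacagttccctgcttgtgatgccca
Amotl2 promoter, plus strand, chr9:102717554-102717803: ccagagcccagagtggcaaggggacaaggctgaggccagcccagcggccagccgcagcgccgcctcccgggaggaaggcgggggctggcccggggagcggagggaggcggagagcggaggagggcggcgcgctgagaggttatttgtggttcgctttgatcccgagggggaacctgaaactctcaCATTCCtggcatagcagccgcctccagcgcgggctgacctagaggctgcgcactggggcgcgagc

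Ankrd1 held the motif at 210 and 123 bases before the start and Ajuba at 186 and 164 bases. In Cyr61 it stood 103 bases and in Amotl2 65 bases before the start, in Yap1 141 bases, and in Wwtr1 136 bases before the first of 2 listed starts. A match of these letters is a description of the sequence and not a binding site.

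At 24 h, 6 members were higher in KD than in NC (Wwtr1, Lats2, Ajuba, Amotl2, Ctgf and Cyr61) and Tead1 was lower, of 9 members with enough reads to be tested. At 72 h Wwtr1, Lats2 and Ajuba were higher and no member was lower. A call was an adjusted p under 0.05 in limma, adjusted by Benjamini-Hochberg over every entry tested. Read by the same entry rule, 10.7% of 11518 genes tested were called higher and 11.1% lower at 24 h, and 10.4% of 11470 genes were called higher and 13.0% lower at 72 h. Ankrd1 had too few reads for the test at either time, and Ajuba passed the filter on low values at 24 h through its KD samples, since 2 of the 6 NC samples reached its level. At 72 h, 4 of 5 NC samples of Ajuba and 3 of 5 of Ctgf reached it. The members were chosen with earlier results of these data known, so that their counts and median are a description and support nothing. The median log2 fold change over the tested members was 0.77 at 24 h and 0.33 at 72 h, beside -0.01 over all genes at either time. On RPKM as deposited, without the scaling between libraries, the median of all genes at 72 h moved by 0.25, and Amotl2 (0.58 ± 0.13, SE, adjusted p = 0.0051) and Ctgf (1.25 ± 0.37, adjusted p = 0.019) were then called higher as well. Fold changes were computed on log2(scaled RPKM + 0.1), which understates the change of low genes.

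**Figure D1:**
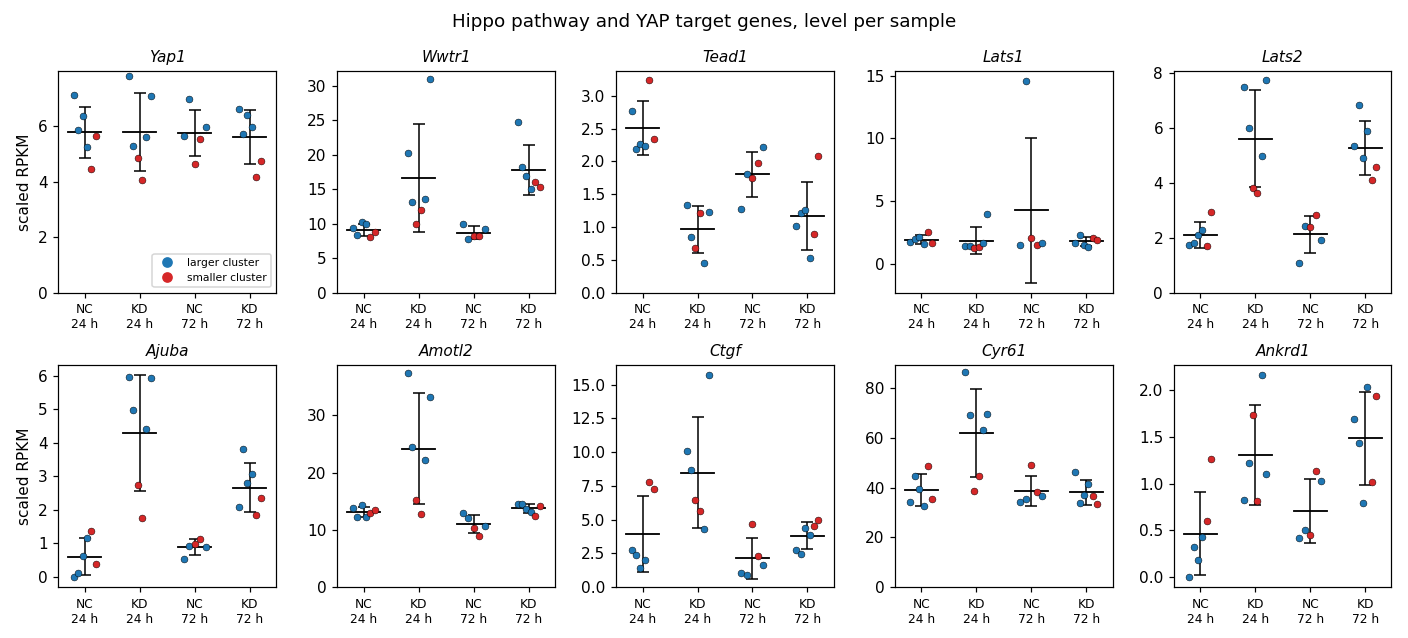
Level of each member in every sample, in scaled RPKM (y axis, linear and separate for each gene), for the groups NC 24 h, KD 24 h, NC 72 h and KD 72 h (x axis). Points are samples, coloured by the larger or smaller cluster, and lines are the mean with the SD. Lats2 and Ajuba lie above NC in all KD samples at both times, and a single NC 72 h sample of Lats1 stands at 14.6.

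The transcript of TAZ was higher after the knockdown, and no difference was detected in that of its relative YAP. Yap1 measured 4.05 to 7.80 scaled RPKM with a median of 5.43 in KD 24 h, and 4.44 to 7.12 with a median of 5.76 in NC 24 h. In KD 72 h it measured 4.18 to 6.62 with a median of 5.84, and the 5 NC 72 h samples measured 4.65, 5.55, 5.64, 5.98 and 6.96. The groups overlapped at both times. The log2 fold change of Yap1 was -0.01 at 24 h (95% interval -0.42 to 0.40, adjusted p = 0.98) and -0.04 at 72 h (-0.41 to 0.32, adjusted p = 0.89), and its sign turned under other settings (0.05 at 24 h and 0.20 at 72 h on RPKM as deposited).

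Wwtr1 measured 10.02 to 31.02 scaled RPKM with a median of 13.4 in KD 24 h, and 8.07 to 10.2 with a median of 9.09 in NC 24 h. The lowest KD 24 h sample, replicate 3, fell inside the range of NC, and the highest was replicate 6, the library with the fewest reads. In KD 72 h Wwtr1 measured 15.1 to 24.8 with a median of 16.5, and the NC 72 h samples measured 7.83, 8.20, 8.23, 9.24 and 10.03, so that all 6 KD samples were above all 5 of NC. KD against NC gave a log2 fold change of 0.77 ± 0.23 (SE) at 24 h (adjusted p = 0.029) and 1.01 ± 0.15 at 72 h (adjusted p = 3.5e-04). At 24 h the call was lost with a replicate block (adjusted p = 0.052), without a filter on low values (adjusted p = 0.052) and without replicate 1, 2 or 5 (adjusted p = 0.11, 0.075 and 0.075). By cluster the 24 h value was 0.94 ± 0.26 in the larger (adjusted p = 0.026) and 0.39 ± 0.21 in the smaller one (adjusted p = 0.34). At 72 h the call was held in both the larger cluster (1.04 ± 0.19, adjusted p = 0.0023) and the smaller one (0.93 ± 0.21, adjusted p = 0.023). The 6 Wwtr1 entries of the table gave 0.73 to 0.84 at 24 h and 1.00 to 1.43 at 72 h, although they overlap and share reads.

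Of the DNA-binding partners, Tead1 was lower at 24 h. It measured 0.447 to 1.34 scaled RPKM with a median of 1.04 in KD 24 h, and 2.19 to 3.24 with a median of 2.31 in NC 24 h, so that all KD samples were below all NC samples. At 72 h the KD samples measured 0.530 to 2.08 with a median of 1.11, and the NC 72 h samples measured 1.28, 1.74, 1.81, 1.97 and 2.22, so that the groups overlapped. On the log2 scale the difference was -1.34 ± 0.27 (SE) at 24 h (adjusted p = 0.0035) and -0.67 ± 0.29 at 72 h (adjusted p = 0.12). Within the clusters Tead1 at 24 h stood at -1.30 ± 0.35 in the larger one (adjusted p = 0.022) and at -1.47 ± 0.43 in the smaller one (adjusted p = 0.12). The 5 Tead1 entries tested at 24 h gave -1.47 to -1.07.

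Tead2, a TEAD factor listed among the relatives, was higher at both times. It measured 2.82 to 6.79 scaled RPKM with a median of 5.20 in KD 24 h and 0.817 to 1.66 with a median of 1.27 in NC 24 h, and 3.58 to 5.64 with a median of 5.14 in KD 72 h. The NC 72 h samples measured 0.755, 0.857, 1.40, 1.74 and 1.79, and the groups did not overlap at either time. The filter on low values was reached by all KD samples but by 4 of 6 NC samples at 24 h and 3 of 5 at 72 h. The log2 fold change was 1.88 ± 0.25 (SE) at 24 h (adjusted p = 3.7e-04) and 1.90 ± 0.25 at 72 h (adjusted p = 1.5e-04). Tead3 was near the detection limit, with 1 to 20 reads per library, and was tested only at 72 h, where its change was 0.77 ± 0.49 (log2, SE, adjusted p = 0.28). Tead4 had 3 reads in sum in KD 24 h, 3 in KD 72 h and 0 in both NC groups.

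The LATS kinases phosphorylate YAP and TAZ. Lats2 measured 3.65 to 7.76 scaled RPKM with a median of 5.50 in KD 24 h and 1.70 to 2.95 with a median of 1.95 in NC 24 h. In KD 72 h it measured 4.11 to 6.85 with a median of 5.13, and the NC 72 h samples measured 1.07, 1.92, 2.41, 2.45 and 2.83. All KD samples were above all NC samples at both times. As a log2 fold change, KD against NC was 1.36 ± 0.24 (SE) at 24 h (adjusted p = 0.0019) and 1.32 ± 0.24 at 72 h (adjusted p = 0.0016). It was 1.67 ± 0.24 in the larger cluster and 0.72 ± 0.36 in the smaller one at 24 h (adjusted p = 0.0013 and 0.31), and 1.68 ± 0.30 and 0.71 ± 0.33 at 72 h (adjusted p = 0.0018 and 0.20). Of 14 Lats2 entries 3 were tested, and they ranged from 0.27 to 1.36 at 24 h and from 0.74 to 1.32 at 72 h.

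No difference was detected in Lats1. It measured 1.21 to 3.96 scaled RPKM with a median of 1.42 in KD 24 h, 1.57 to 2.51 with a median of 1.83 in NC 24 h, and 1.36 to 2.25 with a median of 1.78 in KD 72 h. The NC 72 h samples measured 1.48, 1.48, 1.66, 2.07 and 14.6, where the last is the mean of replicates 2 and 3, and all groups overlapped. KD against NC gave a log2 fold change of -0.16 ± 0.28 (SE) at 24 h (adjusted p = 0.72) and -0.54 ± 0.48 at 72 h (adjusted p = 0.46). Without NC 72 h replicates 2 and 3 the 72 h value was 0.07 ± 0.23 (adjusted p = 0.86), and the entry of Lats1 with the highest mean RPKM gave 0.06 ± 0.23 (adjusted p = 0.88).

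In these 3 pairs of related genes the balance within a library differed between KD and NC. The pairs were chosen after their values were seen, and the ratios are given as a description with no test. The log2 ratio of Tead2 to Tead1 was 2.26 ± 0.68 (SD, n = 6) in KD 24 h and -0.97 ± 0.44 (SD, n = 6) in NC 24 h, and 2.07 ± 0.54 (SD, n = 6) in KD 72 h and -0.49 ± 0.70 (SD, n = 5) in NC 72 h. The log2 ratio of Lats2 to Lats1 was 1.63 ± 0.48 (SD, n = 6) in KD 24 h and 0.12 ± 0.48 (SD, n = 6) in NC 24 h, and 1.52 ± 0.37 (SD, n = 6) in KD 72 h and -0.33 ± 1.31 (SD, n = 5) in NC 72 h. The NC 72 h mean of this ratio was set by the sample of replicates 2 and 3, at -2.52, whereas the other samples stood at -0.44, 0.20, 0.21 and 0.89. The log2 ratio of Wwtr1 to Yap1 was 1.44 ± 0.37 (SD, n = 6) in KD 24 h and 0.66 ± 0.20 (SD, n = 6) in NC 24 h, and 1.64 ± 0.25 (SD, n = 6) in KD 72 h and 0.59 ± 0.26 (SD, n = 5) in NC 72 h. All KD samples lay above all NC samples of the same time in each of the 3 ratios. How many other gene pairs separate likewise was not examined, so this is a description of the chosen pairs. Ratios between genes are per length on the RPKM scale, and since reads came from 3′ ends a long transcript is undercounted on it, which cancels between KD and NC but not in the ratio itself.

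**Figure D2:**
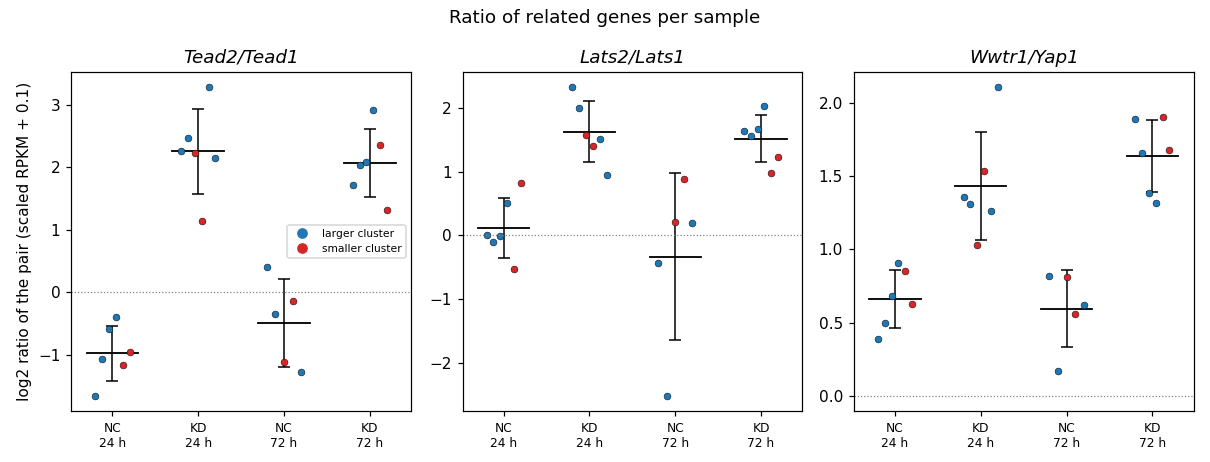
Log2 ratio of Tead2 to Tead1, Lats2 to Lats1 and Wwtr1 to Yap1 in every sample (y axis, scaled RPKM + 0.1), for the 4 groups (x axis). Points are samples coloured by cluster, and lines are the mean with the SD. In each panel all KD points lie above the NC points of the same time, and for Tead2 to Tead1 the mean was 2.26 in KD 24 h against -0.97 in NC 24 h. The pairs were chosen after their values were seen.

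AJUBA is a LIM domain protein that binds LATS kinases at junctions and holds them back, and AMOTL2 is a junction protein of the angiomotin family that tethers YAP. Ajuba measured 1.76 to 5.98 scaled RPKM with a median of 4.69 in KD 24 h and 0 to 1.38 with a median of 0.502 in NC 24 h, from 338 reads in sum against 54. At 72 h the KD samples measured 1.84 to 3.83 with a median of 2.58, and the NC 72 h samples measured 0.526, 0.880, 0.930, 0.988 and 1.14. All KD samples were above all NC samples at both times. The log2 fold change was 3.06 ± 0.58 (SE) at 24 h, which is given without a p because Ajuba stood among the largest rises known when the members were chosen. At 72 h it was 1.48 ± 0.25 (adjusted p = 0.0010). Fitted by cluster at 24 h, Ajuba stood at 3.86 ± 0.68 (larger) and 1.45 ± 0.57 (smaller), and 1.81 ± 0.33 and 0.91 ± 0.42 at 72 h (adjusted p = 0.0021 and 0.20).

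Amotl2 measured 12.7 to 37.4 scaled RPKM with a median of 23.3 in KD 24 h and 12.2 to 14.4 with a median of 13.2 in NC 24 h. In KD 72 h it measured 12.5 to 14.6 with a median of 13.95, and the NC 72 h samples measured 8.96, 10.4, 10.7, 12.03 and 13.03. The groups overlapped at both times, and KD 24 h replicate 4 was the KD sample that fell into the NC range. On the log2 scale the difference was 0.78 ± 0.23 (SE) at 24 h (adjusted p = 0.026) and 0.33 ± 0.12 at 72 h (adjusted p = 0.071). At 24 h it was 1.11 ± 0.19 in the larger cluster (adjusted p = 0.0031) and 0.09 ± 0.18 in the smaller one (adjusted p = 0.84), and the call was lost without replicate 1, 2, 5 or 6 (adjusted p = 0.057 to 0.091).

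**Figure D3:**
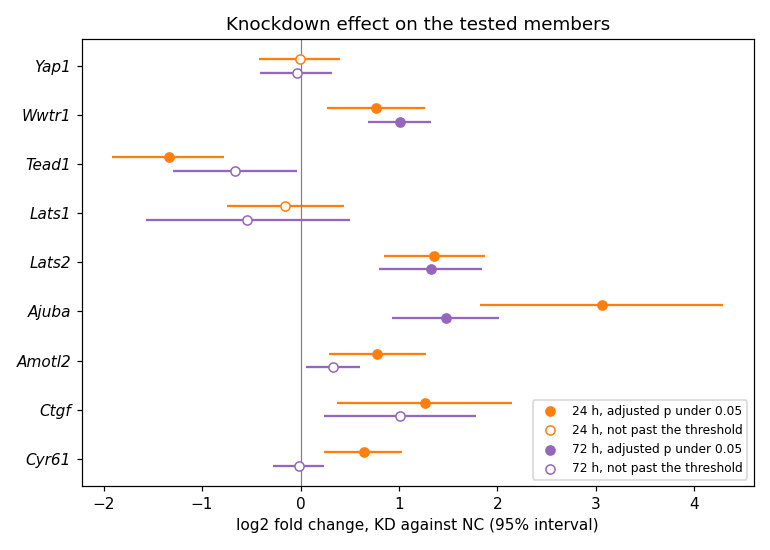
Log2 fold change of KD against NC with its 95% interval (x axis) for the 9 tested members (y axis), at 24 h and at 72 h. Filled points passed an adjusted p of 0.05 in limma and open points did not. Ajuba stood at 3.06 at 24 h and 1.48 at 72 h, Tead1 at -1.34 and -0.67, and Yap1 near 0 at both times.

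Of the transcriptional targets, Ctgf and Cyr61 encode secreted matricellular proteins of the CCN family and Ankrd1 encodes an ankyrin repeat protein of stretched muscle. Ctgf measured 4.32 to 15.7 scaled RPKM with a median of 7.54 in KD 24 h and 1.43 to 7.80 with a median of 2.56 in NC 24 h. At 72 h the KD samples measured 2.45 to 4.95 with a median of 4.13, and the NC 72 h samples measured 0.922, 1.07, 1.66, 2.31 and 4.65. The groups overlapped at both times, and the high NC samples were those of the smaller cluster, at 7.80 and 7.30 in NC 24 h and at 4.65 and 2.31 in NC 72 h. As a log2 fold change, KD against NC was 1.26 ± 0.42 (SE) at 24 h (adjusted p = 0.043) and 1.01 ± 0.36 at 72 h (adjusted p = 0.056). The 24 h call was lost without replicate 1, 2, 3 or 4 (adjusted p = 0.15, 0.14, 0.098 and 0.084), without a filter on low values (adjusted p = 0.088) and, in a setting chosen after seeing the data, without KD 24 h replicate 6, the highest sample and the one with the fewest reads (1.06 ± 0.40, adjusted p = 0.070). In the larger cluster it was 2.03 ± 0.37 at 24 h (adjusted p = 0.0044) and 1.40 ± 0.32 at 72 h (adjusted p = 0.0082). In the smaller cluster it was -0.31 ± 0.23 at 24 h (adjusted p = 0.50) and 0.51 ± 0.38 at 72 h (adjusted p = 0.44), so that the direction at 24 h did not hold within both.

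Cyr61 was the most abundant member per length. It measured 38.7 to 86.7 scaled RPKM with a median of 66.3 in KD 24 h and 32.5 to 48.7 with a median of 37.5 in NC 24 h. In KD 72 h it measured 33.4 to 46.2 with a median of 36.8, and the NC 72 h samples measured 34.4, 35.4, 36.5, 38.3 and 49.2. At 24 h the KD samples of the larger cluster were above every NC sample while the 2 of the smaller cluster, at 38.7 and 44.8, lay within the NC range. The log2 fold change was 0.64 ± 0.19 (SE) at 24 h (adjusted p = 0.025) and -0.02 ± 0.12 at 72 h (95% interval -0.28 to 0.24, adjusted p = 0.93), the latter being 0.23 on RPKM as deposited. At 24 h it was 0.93 ± 0.15 in the larger cluster (adjusted p = 0.0023) and 0.01 ± 0.17 in the smaller one (adjusted p = 0.98), and the call was lost without replicate 1, 2 or 6 (adjusted p = 0.11, 0.070 and 0.059) and without a filter on low values (adjusted p = 0.055).

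Ankrd1 was low in every group, with 3 to 18 reads per library in KD 24 h and 0 to 10 in NC 24 h, and 6 to 17 in KD 72 h and 2 to 9 in NC 72 h. It measured 0.817 to 2.16 scaled RPKM with a median of 1.16 in KD 24 h against 0 to 1.26 with a median of 0.376 in NC 24 h. At 72 h the KD samples measured 0.795 to 2.03 with a median of 1.56, and the NC 72 h samples measured 0.418, 0.452, 0.500, 1.03 and 1.13. The groups overlapped at both times. When no filter on low values was applied, its log2 fold change was 1.63 ± 0.56 (SE) at 24 h (adjusted p = 0.097) and 1.02 ± 0.39 at 72 h (adjusted p = 0.14), and neither was called.

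**Figure D4:**
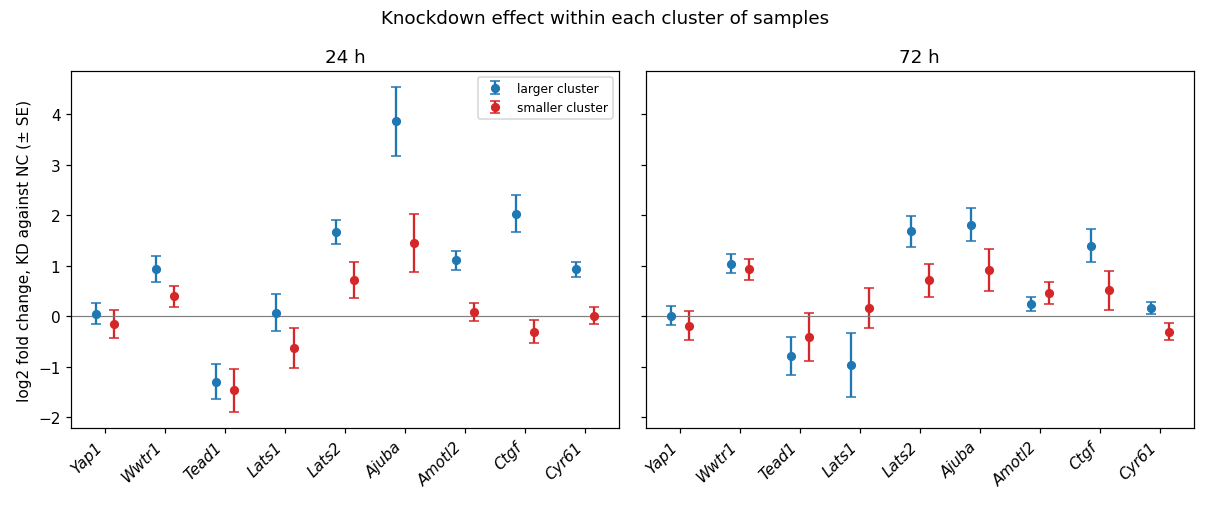
Log2 fold change of KD against NC with its SE (y axis) for the 9 tested members (x axis), fitted in the larger and in the smaller cluster of samples alone, at 24 h and at 72 h. The smaller cluster had 2 KD and 2 NC samples at each time. At 24 h Ctgf was at 2.03 in the larger cluster and -0.31 in the smaller one, and Tead1 was at -1.30 and -1.47.

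The calls at 24 h depended on which samples entered the fit, for the members and over all entries. Of all entries, 11752 of 53840 were called at 24 h, 13261 of 52837 in the larger cluster and 1334 of 56709 in the smaller one. Without replicate 1 they were 6363 of 55208, and without replicate 2 they were 6106 of 53966. At 72 h they were 12167 of 53913, with 13700 of 53243 in the larger cluster and 5845 of 55811 in the smaller one. Of the 7 member calls at 24 h, 7 were made in the larger cluster alone. In the smaller one, where 2 samples met 2, limma gave 0 calls, and the 7 members ranged from -1.47 to 1.45. There 2 members (Tead1 and Ajuba) had an unadjusted p under 0.05, beside 11297 of 56709 entries. At 72 h there were 4 calls in the larger cluster, and Wwtr1 was the 1 call in the smaller one. Leaving out replicate 1 of both groups, or replicate 2, reduced the count at 24 h to 3, which were Lats2, Tead1 and Ajuba in either case, the last being a description only, as said above.

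An interaction term, fitted with the 4 groups together, tested whether the effect differed between the times, and all 10 members entered it. No member was called by limma, beside 0.268% of 12698 genes. In that fit 2 members had an unadjusted p under 0.05, beside 6973 of 59369 entries. Voom with limma on the recovered reads gave 0 calls and 3 such members, beside 7006 of 59369 entries. Those 2 were Ajuba, whose effect at 72 h was lower by a log2 difference of -1.58 ± 0.70 (SE, adjusted p = 0.37), and Cyr61, with -0.65 ± 0.23 (adjusted p = 0.26). Tead1 stood at 0.69 ± 0.40 (adjusted p = 0.51) and Lats2 at -0.03 ± 0.34 (95% interval -0.73 to 0.67, adjusted p = 0.98). A call at 24 h and none at 72 h for Tead1, Amotl2, Ctgf and Cyr61 was therefore not shown to be a difference between the times.

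Without knockdown, no tested member was called between NC 72 h and NC 24 h, beside 9.28% of 11198 genes. A single member, Tead1, had an unadjusted p under 0.05 in limma (log2 fold change -0.45 ± 0.20, SE, adjusted p = 0.20), beside 12028 of 52523 entries. Voom with limma on the recovered reads gave 0 calls and 2 such members, beside 12110 of 52523 entries. Ctgf stood at -0.80 ± 0.48 (adjusted p = 0.36), Ajuba at 0.98 ± 0.58 (adjusted p = 0.35), and Yap1, Lats2 and Cyr61 were within 0.01 of 0.

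The surrounding pathway was read from 69 other genes in 8 lists. At 24 h 55 of them were tested, of which 7 were called higher and 10 lower, and at 72 h 56 were tested, again with 7 higher and 10 lower. These are 12.7% higher and 18.2% lower at 24 h and 12.5% and 17.9% at 72 h, to be read beside the shares over all genes given above. The median log2 fold change was 0.00 at 24 h and 0.13 at 72 h.

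**Figure D5:**
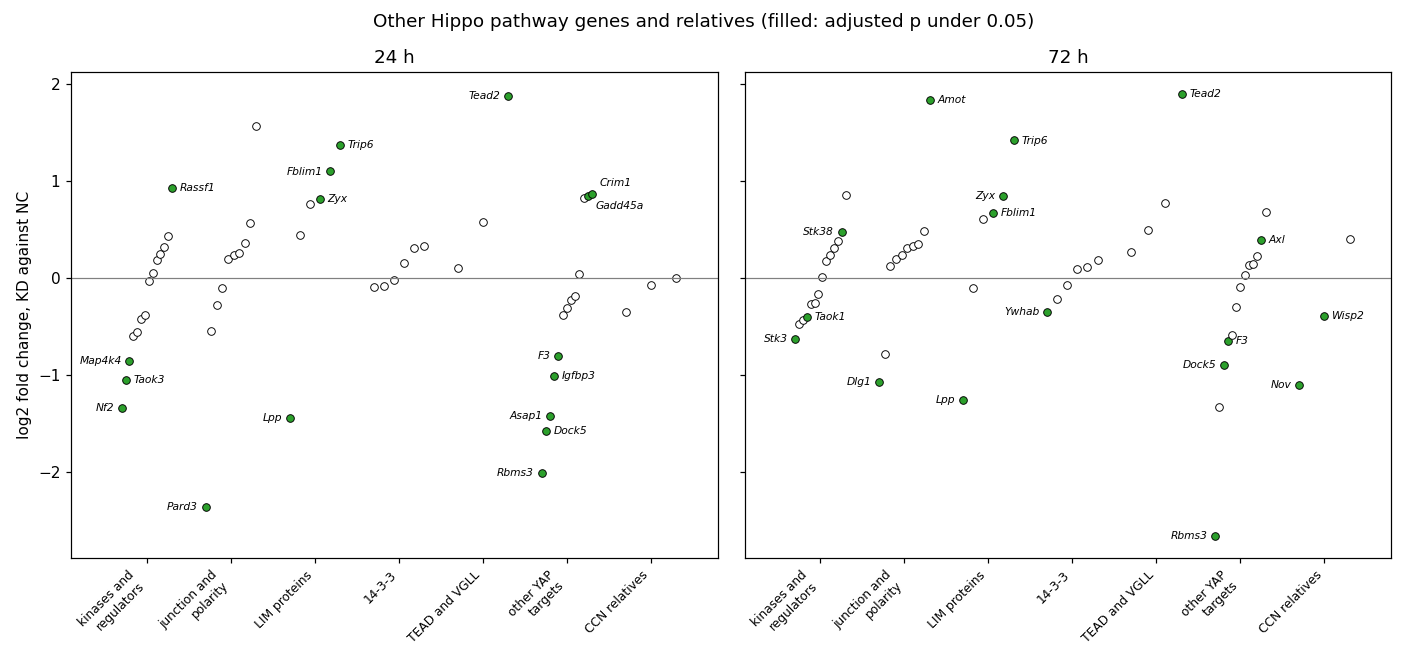
Log2 fold change of KD against NC (y axis) for the tested genes of 7 pathway lists (x axis) at 24 h (left) and 72 h (right). Filled and named points passed an adjusted p of 0.05 in limma, and open points did not. Tead2, Trip6, Zyx and Fblim1 were higher and Lpp, Dock5, F3 and Rbms3 lower at both times.

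Upstream of LATS, 16 kinases, scaffolds and regulators were listed and 14 tested. Nf2, the gene of the tumour suppressor merlin, was lower at 24 h, with a change of -1.34 ± 0.26 (log2, SE, adjusted p = 0.0034), as were Taok3 (-1.05 ± 0.21, adjusted p = 0.0034) and Map4k4 (-0.86 ± 0.22, adjusted p = 0.013), which are kinases that act on this chain. Rassf1, a scaffold that binds the MST kinases, was higher (0.93 ± 0.28, adjusted p = 0.027). At 72 h the calls were Stk3, the gene of the kinase MST2, which was lower (-0.63 ± 0.18, adjusted p = 0.021), Taok1, which was lower (-0.40 ± 0.13, adjusted p = 0.038) and Stk38, a relative of the LATS kinases, which was higher (0.48 ± 0.14, adjusted p = 0.021). Stk38 stood at -0.38 ± 0.16 at 24 h (adjusted p = 0.11), and the difference between the times was 0.87 ± 0.19 (adjusted p = 0.053).

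Among 11 junction and polarity genes, of which 10 were tested, Pard3, a polarity scaffold, was lower at 24 h. Its level was 0 to 0.425 scaled RPKM in KD 24 h and 1.01 to 1.64 in NC 24 h, a log2 fold change of -2.36 ± 0.38 (SE). It passed the filter on low values through NC, since 2 of 6 KD samples reached its level, and is given without a p. At 72 h Dlg1, another polarity scaffold, was lower (-1.07 ± 0.24, adjusted p = 0.0064). Amot, the angiomotin gene and a relative of Amotl2, was higher at 72 h, with 1.29 to 1.90 scaled RPKM in KD against 0.139 to 0.664 in NC and a log2 fold change of 1.84 ± 0.30 (SE). It passed the filter through KD, since 2 of 5 NC samples reached its level, and is likewise given without a p. At 24 h a single KD sample of Amot reached 5.21 while the group median was 0.836, and the log2 fold change of 1.57 ± 0.54 (SE, adjusted p = 0.050) was not called.

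The relatives of Ajuba, 6 LIM domain proteins of junctions and focal adhesions, were all tested. At each time 3 were called higher (50.0%) and 1 lower (16.7%), to be read beside the shares over all genes given above. Limd1 and Wtip were not called. Limd1 stood at 0.44 ± 0.20 (log2, SE) at 24 h (adjusted p = 0.13) and -0.10 ± 0.20 at 72 h (adjusted p = 0.76). Wtip stood at 0.76 ± 0.34 (adjusted p = 0.12) and 0.61 ± 0.28 (adjusted p = 0.14). Trip6, which binds LATS2, was higher at 24 h, by 1.37 ± 0.27 on the log2 scale (adjusted p = 0.0036), and at 72 h (1.42 ± 0.18, adjusted p = 9.6e-05). At 24 h its samples measured 8.54 to 26.6 scaled RPKM in KD and 5.00 to 7.04 in NC, without overlap. Zyx, the gene of zyxin, was higher by 0.82 ± 0.21 at 24 h (adjusted p = 0.013) and 0.85 ± 0.14 at 72 h (adjusted p = 9.0e-04), and Fblim1 by 1.10 ± 0.31 (adjusted p = 0.021) and 0.67 ± 0.18 (adjusted p = 0.016). Lpp, another zyxin relative, was lower, with 2.18 to 5.89 scaled RPKM in KD 24 h against 7.07 to 13.02 in NC 24 h (log2 fold change -1.44 ± 0.26, SE, adjusted p = 0.0023) and a change of -1.26 ± 0.15 at 72 h (adjusted p = 6.4e-05).

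The 14-3-3 genes, whose proteins hold phosphorylated YAP in the cytoplasm, gave no call at 24 h among 6 tested. Of these, 2 had an unadjusted p under 0.05 in limma, beside 19712 of 53840 entries. At 72 h 1 of 6 was called lower (16.7%), beside 13.0% of all genes. It was Ywhab, with -0.35 ± 0.11 (log2, SE, adjusted p = 0.035). The VGLL cofactors compete with YAP for TEAD factors. Vgll3 measured 4.05 to 7.61 scaled RPKM in KD 24 h against 2.43 to 4.30 in NC 24 h (log2 fold change 0.58 ± 0.22, SE, adjusted p = 0.076) and Vgll4 stood at 0.10 ± 0.32 (adjusted p = 0.84), while Vgll2 had no read in any library.

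A list of 17 other genes known as targets of YAP and TAZ in other cells held more calls of a lower than of a higher level. Of the 17 genes 13 were tested, with 2 called higher (15.4%) and 5 lower (38.5%) at 24 h. At 72 h 1 was called higher (7.7%) and 3 lower (23.1%). Over all genes 10.7% were called higher and 11.1% lower at 24 h, and 10.4% and 13.0% at 72 h. The list was chosen with earlier results of these data known, so its counts are a description. Rbms3, the gene of an RNA-binding protein, measured 0.526 to 1.35 scaled RPKM in KD 24 h against 3.02 to 4.32 in NC 24 h, and 0.979 to 1.78 in KD 72 h against 6.64 to 11.7 in NC 72 h. Its log2 fold change was -2.01 ± 0.25 (SE) at 24 h (adjusted p = 2.1e-04) and -2.66 ± 0.21 at 72 h (adjusted p = 3.7e-06), and in the smaller cluster alone it was called at 24 h (-1.59 ± 0.33, adjusted p = 0.048) and at 72 h (-3.04 ± 0.36, adjusted p = 0.0010). Dock5, an activator of Rac GTPases, was lower, with -1.58 ± 0.28 at 24 h (adjusted p = 0.0023) and -0.90 ± 0.27 at 72 h (adjusted p = 0.028), although 4 of 6 KD samples reached the level of the filter at 24 h. Asap1, an Arf GTPase regulator, was lower at 24 h (-1.42 ± 0.31, adjusted p = 0.0058), where 5 of 6 KD samples reached the level of the filter.

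Among the genes called higher in this list were Crim1 (0.87 ± 0.29, SE, adjusted p = 0.044) and the stress gene Gadd45a (0.85 ± 0.24, adjusted p = 0.020) at 24 h, and Axl, a receptor tyrosine kinase, at 72 h (0.39 ± 0.11, adjusted p = 0.021). F3, the gene of tissue factor, was lower at 24 h (-0.80 ± 0.18, adjusted p = 0.0075) and at 72 h (-0.65 ± 0.22, adjusted p = 0.048). Of the relatives of Ctgf and Cyr61, Nov was lower at 72 h (-1.10 ± 0.33, adjusted p = 0.027), with 1.06 to 3.26 scaled RPKM in KD against 2.37 to 6.86 in NC, where the highest samples, at 6.86 and 6.01, were those of the smaller cluster. Wisp2 stood at -0.39 ± 0.13 at 72 h (adjusted p = 0.045). Wisp1 stood at 0.40 ± 0.14 at 72 h (adjusted p = 0.062), and all 3 rose over time in NC, Nov by 1.85 ± 0.35 (adjusted p = 0.0034). Wisp3 had at most 1 read in a sample. Of the ankyrin repeat relatives of Ankrd1, Ankrd2 had at most 4 reads and Ankrd23 at most 7 reads in a library, and neither was tested.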

How the data were processed

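Bulk RNA barcoding and sequencing (BRB-seq), which reads transcripts near their 3′ ends, was performed by the authors on 24 libraries, 6 per group. The deposited values were RPKM for 168326 transcript entries. The genome build and strand handling were not given in the sources used here. The 10 members and the pathway lists were chosen with earlier results of these data known.

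Low RPKM values were whole multiples of the value of 1 read (within 0.05 reads, for 73.5 to 94.7% of low values per library), from which reads and depth were recovered. RPKM was scaled between libraries by a trimmed mean of log ratios (30% of ratios and 5% of levels trimmed). An entry was tested if the smaller group's number of samples reached the RPKM that 10 reads give at median depth, and if it had 15 reads in all. Log2(scaled RPKM + 0.1) was fitted with limma 3.58.1 in R 4.3.3 (lmFit and eBayes with trend). P-values are two-sided, adjusted by Benjamini-Hochberg over all entries tested. They measure the spread between libraries, and intervals cover no other error. Entries of 1 gene overlap and share reads.

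NC 72 h replicates 2 and 3 differed by 0.347 of the counting noise, against 1.94 in the next closest of 276 pairs, and were averaged. Samples were cut into 2 clusters, a number set beforehand, by their deviations from group means. The fits were run on simulated counts that were independent between samples and genes. Those counts held neither the clusters nor the shared reads of overlapping entries, so the runs do not cover these features. Named genes were the 10 members, of each pathway list the called genes with the largest change at either time (at most 3 higher and 3 lower), and the relatives of TEAD, CCN and ankyrin repeat members with any reads. The LIM genes that were not called are named as well. Alternatives were RPKM as deposited, a pseudocount of 1, no filter, other entries per gene, a replicate block, voom on recovered reads, each cluster alone and leaving out replicates.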

Additional observations from a re-analysis of the deposited data

Results flagged for a closer look

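Of 40 groups of member values examined, 4 held a sample standing far from the others of its group, judged by its gap to the nearest sample as a share of the group's range. Chance flags about 1 in 20 groups. Wwtr1 measured 24.8 scaled RPKM in KD 72 h replicate 1, beside 18.3 in the next sample (share 0.672). Lats1 measured 3.96 in KD 24 h replicate 6, the library with the fewest reads, beside 1.67 (share 0.831). Lats1 measured 14.6 in the mean of NC 72 h replicates 2 and 3, beside 2.07 (share 0.955). Cyr61 measured 49.2 in NC 72 h replicate 4, beside 38.3 (share 0.738).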

How the results depend on the processing

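The number of members called at 24 h, 7 of 9 tested, was 4 without a filter on low values and 0 in the smaller cluster alone, and ranged from 3 to 6 when a replicate was left out, with 3 without replicate 1 and 3 without replicate 2. At 72 h it was 3, and 5 on RPKM as deposited, 1 in the smaller cluster and 3 to 4 when a replicate was left out. The 17 pathway genes called at 24 h became 3 in the smaller cluster and 12 to 20 when a replicate was left out. The 17 called at 72 h became 11 without a filter, 9 in the smaller cluster and 10 to 15 when a replicate was left out, with 10 without replicate 4. With a replicate block 6 members were called at 24 h, 3 at 72 h, and 11 pathway genes at 72 h. The calls over all entries moved as well. At 24 h they were 11752 of 53840 entries, 8528 of 120943 without a filter and 1334 of 56709 in the smaller cluster. At 72 h they were 12167 of 53913, 16250 of 53913 on RPKM as deposited and 9592 of 121235 without a filter. They were 5845 of 55811 in the smaller cluster at 72 h, and 8254 of 53913 with a replicate block. Deviations from the group means of samples with the same number had a mean correlation of -0.05 at 24 h and 0.01 at 72 h. Whether the numbers pair the samples is not given by the labels and cannot be told from these values. The causes were not tested.

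The sign turned for values that were not called. Yap1 at 24 h was 0.05 on RPKM as deposited, 0.05 in the larger cluster and ranged from -0.09 to 0.06 when a replicate was left out, above 0 without replicates 2, 3 or 4. Yap1 at 72 h was 0.20 on RPKM as deposited, 0.01 in the larger cluster, and ranged from -0.14 to 0.03 when a replicate was left out, above 0 without replicates 5 or 6. Lats1 was 0.07 at 24 h in the larger cluster, and at 72 h 0.06 in the entry with the highest mean RPKM and 0.16 in the smaller cluster. Cyr61 at 72 h was 0.23 on RPKM as deposited, 0.16 in the larger cluster, 0.01 with NC 72 h replicates 2 and 3 kept apart, and ranged from -0.12 to 0.04 when a replicate was left out, above 0 without replicate 2 or 4. Without NC 72 h replicates 2 and 3, chosen after seeing the data, Yap1 was 0.02 and Lats1 0.07 at 72 h. The call of Ctgf at 24 h turned to -0.31 in the smaller cluster. For single members 252 alternative values kept their direction and their side of the threshold, 27 were no longer called, 7 became called and 20 changed sign.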
